A study of Homo sapiens with 4 samples.

Results

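The miR-30 family is a group of mature miRNAs that share a seed, the bases at positions 2 to 8 through which a miRNA recognises its target mRNAs. Its members were taken as every assay named hsa-miR-30a, hsa-miR-30b, hsa-miR-30c, hsa-miR-30d or hsa-miR-30e (the prefix is left out from here on), with or without the number of a hairpin copy and with or without the asterisk that marks the less used arm. This gave 11 of 737 miRNA assays, 5 of them guides (no asterisk) and 6 of them passengers (asterisk). They were measured by reverse transcription and quantitative PCR in U2OS, a line from a human osteosarcoma, in 4 samples. The sample called shNS came from cells that carried a lentiviral control short hairpin RNA, and shDDX1 from cells that carried one against DDX1, a DEAD-box RNA helicase. Both were selected with puromycin at 2 µg/ml. The sample NCS- came from untreated cells, and NCS+ from cells given neocarzinostatin (NCS), a drug that breaks both strands of DNA, for 6 h at 500 ng/ml. Each group had 1 sample, so no difference has a replicate check or a p-value. The first pair addresses which miRNAs depend on DDX1 for their processing, and the second which move after DNA breaks.

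A miRNA gene is transcribed as a long primary transcript in which the miRNA lies in a hairpin. Drosha and DGCR8 cut the hairpin out in the nucleus, Dicer removes the loop, and one arm, the guide, is usually kept by Argonaute while the passenger is mostly lost. The miR-30 guides are known to repress SNAI1 and other drivers of the epithelial-mesenchymal transition, RUNX2 and SMAD1 in osteoblast differentiation, and p53 in heart muscle cells. A change in transcription alters both arms of a hairpin, and so does a change in Drosha cutting. The level of a mature arm also depends on Argonaute loading and decay.

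The mature sequences below show the seed shared by 3 of the 5 guides and the seeds of 4 of the 6 passengers. They are RefSeq's for GRCh38.p14, which held 7 of the 11 assays by name, and capitals mark bases 2 to 8.
miR-30a: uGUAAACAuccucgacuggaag
miR-30c: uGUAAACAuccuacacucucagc
miR-30e: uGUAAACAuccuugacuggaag
miR-30a*: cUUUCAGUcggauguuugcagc
miR-30e*: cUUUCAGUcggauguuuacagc
miR-30c-1*: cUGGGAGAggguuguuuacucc
miR-30c-2*: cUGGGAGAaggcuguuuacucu
The guides shown share the seed GUAAACA. miR-30a and miR-30e differ by 1 base, C13U, counted from the 5′ end of miR-30a, and each differs from miR-30c at 5 of 22 aligned positions, none of them in the seed. The passengers shown fall into seed groups of their own. miR-30a* and miR-30e* share UUUCAGU and differ by 1 base, G18A, while miR-30c-1* and miR-30c-2* share UGGGAGA and differ by G9A, U12C and C22U. How well the PCR assays tell such near-identical RNAs apart is not given in the sources used here, so the values of miR-30a and miR-30e, and of their passengers, may each hold some signal of the other.

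The hairpins are printed because the knockdown bears on hairpin processing. Capitals mark the mature arms, with the loop between them.
MIR30E, chr1:40754355-40754446, plus strand: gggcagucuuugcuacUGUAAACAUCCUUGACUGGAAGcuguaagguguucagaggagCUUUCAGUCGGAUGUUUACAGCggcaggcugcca
MIR30C1, chr1:40757284-40757372, plus strand: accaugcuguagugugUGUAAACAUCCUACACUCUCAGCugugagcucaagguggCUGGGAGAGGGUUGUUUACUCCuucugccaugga
MIR30C2, chr6:71376960-71377031, minus strand: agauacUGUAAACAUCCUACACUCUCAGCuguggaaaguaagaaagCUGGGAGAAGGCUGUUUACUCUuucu
MIR30A, chr6:71403551-71403621, minus strand: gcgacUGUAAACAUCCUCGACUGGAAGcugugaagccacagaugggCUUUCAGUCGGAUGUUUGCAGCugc
MIR30E and MIR30C1 lie 2837 bases apart inside NFYC, which encodes a subunit of the NF-Y transcription factor. MIR30C2 and MIR30A lie 26519 bases apart on chromosome 6, and MIR30B and MIR30D also neighbour each other. Mature miR-30c is the same RNA from MIR30C1 and MIR30C2, so only miR-30c-1* and miR-30c-2* tell these hairpins apart. The loops between the mature arms are 20 bases in MIR30E, 16 in MIR30C1, 17 in MIR30C2 and 19 in MIR30A. Each of the 4 holds the letters UGU, a motif that DGCR8 is known to read near the apex, as do 33.7% of 739 RefSeq hairpins with both arms annotated, searched on the RNA strand. The letters GGG, of the kind bound by the splicing regulator KSRP in some hairpin loops, are in the loop of MIR30A and in 21.8% of the 739. Of 372 hairpins with loops of about these lengths, 144 held UGU and 67 held GGG.

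The unit throughout is the quantification cycle (Ct), the PCR cycle at which the signal of a well passes a threshold, so an earlier Ct is a higher level and 1 cycle is taken as 1 doubling. Of the 740 wells for miRNAs, 732 gave a Ct under 35 in shNS, 723 did in shDDX1, 521 in NCS- and 591 in NCS+. Levels are minus Ct after subtraction, sample by sample, of the mean over the 499 wells under 35 in all 4 samples. That mean Ct was 25.8, 26.1, 30.1 and 29.4 in the same order, and ratios were formed within each pair alone. An assay was quantified in a pair if both its samples read under Ct 35, and called lower or higher at 2-fold. The SD of a log2 ratio, from 7 assays present on both panels, was 0.38 for shDDX1 and 0.79 for NCS. This spread is technical and holds no difference between cultures. The 8 mesenchymal marker miRNAs read at median Ct 21.7, 22.2, 26.3 and 26.0 in the 4 samples. The 6 epithelial ones had medians of 27.7, 29.7, 33.8 and 31.3, and the earliest of them read 27.1, 28.5, 30.4 and 28.1. The latest mesenchymal marker in NCS- read 31.9. Markers of other tissues also gave a signal, with medians in shNS of 26.5 for 5 of blood, 28.5 for 4 of muscle, 25.1 for 2 of neurons and 28.6 for 1 of liver, and in NCS- of 32.2, 36.2, 29.4 and 32.8. Their part in the family's values was not tested. In bulk RNA, fewer cells with a miRNA and less of it per cell cannot be told apart.

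miR-30c and miR-30b were the earliest members in every sample. miR-30c read Ct 19.7 in shNS, 19.9 in shDDX1, 23.4 in NCS- and 22.7 in NCS+, and ranked 28, 23, 19 and 28 among the 740 miRNA wells by level. miR-30b read 20.8, 20.7, 24.3 and 23.9 in the same samples, with ranks of 47, 31, 33 and 40. Both kept a high place in both controls and in both treated samples. Amounts of different miRNAs are not compared by these ranks, since each PCR assay has its own efficiency.

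The other guides read later and moved more between samples. miR-30e read Ct 24.1 in shNS, 25.2 in shDDX1, 29.4 in NCS- and 26.9 in NCS+. miR-30a read 27.4, 29.0, 32.3 and 32.4, the latest guide in shNS and shDDX1. miR-30d read 24.8, 26.3, 39.7 and 34.99, so a guide close to miR-30e in the infected cells was at or beyond the limit in the others. In centred levels miR-30d went from 1.07 in shNS to -9.63 in NCS-, while miR-30b went from 4.99 to 5.81. These controls are not matched, since shNS alone is labelled with a control shRNA, and the difference was not tested.

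Among the passengers, miR-30c-2* read Ct 24.1 in shNS, 25.7 in shDDX1, 39.3 in NCS- and 30.2 in NCS+. miR-30b* read 26.1, 28.1, 37.5 and 29.0. Both passed Ct 35 in untreated cells alone, as did miR-30d among the guides. miR-30e* read 24.4, 25.5, 30.6 and 26.7, close to its own guide in every sample. miR-30a* read 26.8, 27.3, 30.8 and 29.8, earlier than its guide in every sample. miR-30c-1* read 26.3, 25.9, 30.6 and 31.0. miR-30d* read 26.5, 26.3, 30.4 and 30.5, and it stayed near Ct 30 in the samples where its guide was late. In the plot of Ct by assay, untreated cells hold the 3 latest readings.

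**Figure D1:**
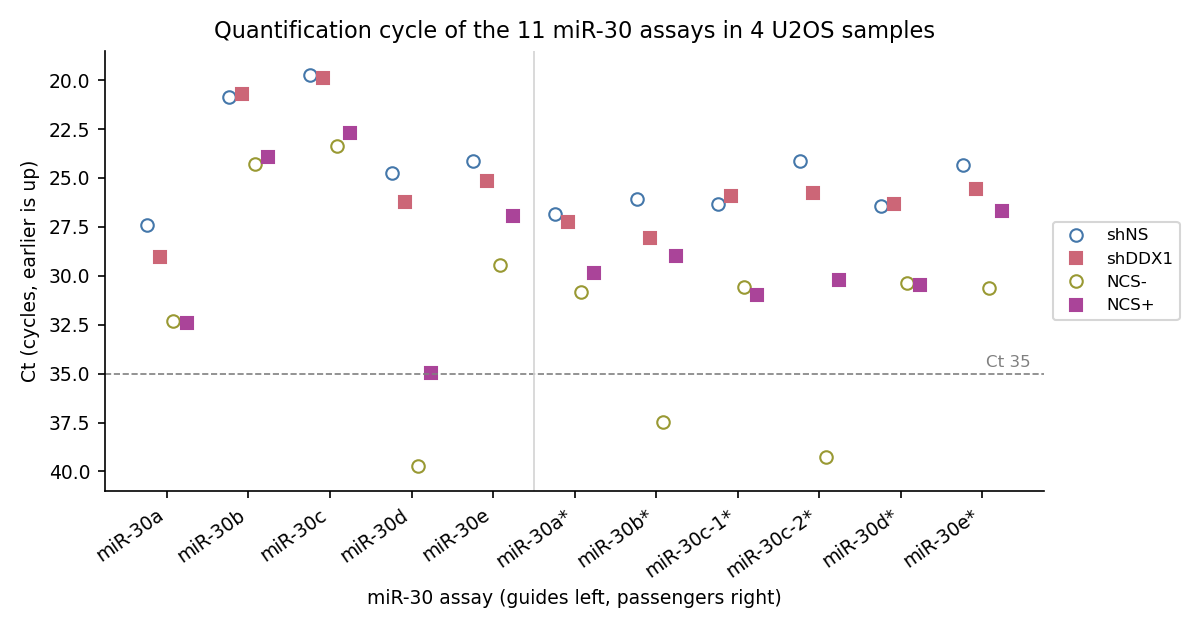
Ct in cycles (axis turned so that earlier is up) of the 11 miR-30 assays, guides left and passengers right, with 1 point per sample. miR-30b and miR-30c are earliest in all 4 samples, and miR-30d, miR-30b* and miR-30c-2* pass Ct 35 in NCS-.

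In shDDX1 cells, 4 of the 11 members were lower by 2-fold or more relative to shNS and 0 were higher, against 17.3% lower and 11% higher of 716 quantified miRNA assays. The 4 were the guides miR-30a and miR-30d and the passengers miR-30b* and miR-30c-2*. All 11 were quantified, with a median log2 ratio of -0.74 against 0.037 for all assays. With neighbouring wells subtracted the median was -0.0082 and 1 member was lower. Under separate centring of each panel 1 member was lower, the median was -0.46 and the background was 15.6% lower and 7.82% higher. The guides had a median of -0.74 and the passengers one of -0.51. The guides with the earliest Ct, miR-30b and miR-30c, were not among the 4. Directions were checked under 8 scalings. Centring was on the mean, on the median, on small RNAs, on reference miRNAs, per panel or per plate calibrator. The others were no centring and the authors' shifted Ct. In shDDX1 these others gave each member the same ratio, so counts out of 8 include that ratio under both names. Each scaling there moved all members of a panel by the same amount, so their order within a panel was fixed.

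miR-30a was 2.52-fold lower in shDDX1, a log2 ratio of -1.33, and below 0 in 8 of 8 scalings, past 2-fold in 6. Its ratio was -0.91 with panels centred separately and -0.79 with neighbouring wells subtracted. In shDDX1 its Ct of 29.0 was later than the earliest water well of panel I, at 27.3. What part of that signal is background was not tested. miR-30d was 2.28-fold lower, at -1.19, below 0 in 8 scalings and past 2-fold in 6. It was at -0.77 with panels centred separately, and the median of its neighbouring wells was -1.21. miR-30e, which lies in NFYC, was at -0.74, below 0 in 8 scalings and past 2-fold in 4. It was at -0.32 with panels centred separately and at -0.034 with neighbouring wells subtracted.

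miR-30b and miR-30c, the early guides, stayed within 2-fold in all 8 scalings. miR-30b was at 0.43 and was below 0 in 2 of 8 scalings. miR-30c was at 0.13 and was below 0 in 4 of 8. The log2 ratio of miR-30b exceeded that of miR-30a by 1.76 and that of miR-30d by 1.62, where the technical SD of such a difference was 0.54. All 5 guides are on panel I, so no centring changes these differences. Once the median of neighbouring wells was subtracted, the first was 1.12 and the second 0.31. miR-30b and miR-30c differed by 0.30, within that SD.

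miR-30b* had the lowest ratio of the family, 3.16-fold lower or -1.66, and it alone was past 2-fold in 8 of 8 scalings. No scaling could make another panel I member lower than it. With panels centred separately it was 2.36-fold lower, and with its neighbouring wells subtracted it was at -1.18. Its shDDX1 Ct of 28.1 was later than the panel I water well at 27.3, while its shNS Ct of 26.1 was earlier than the 27.8 of that well. miR-30c-2* was at -1.32, below 0 in 8 scalings and past 2-fold in 6, but its neighbouring wells had a median of -1.31. miR-30e* was at -0.88 and past 2-fold in 4 scalings, with neighbours at -0.87. The other 3 passengers were within 2-fold in all 8 scalings. miR-30c-1* was at 0.71 and above 0 in 8 of 8. miR-30d* was at 0.42 and below 0 in 4 of 8, and miR-30a* was at -0.14 and below 0 in 8. The Ct of miR-30a*, on panel II, was later than the earliest water well there, which read 26.6 in shNS and 26.5 in shDDX1.

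**Figure D2:**
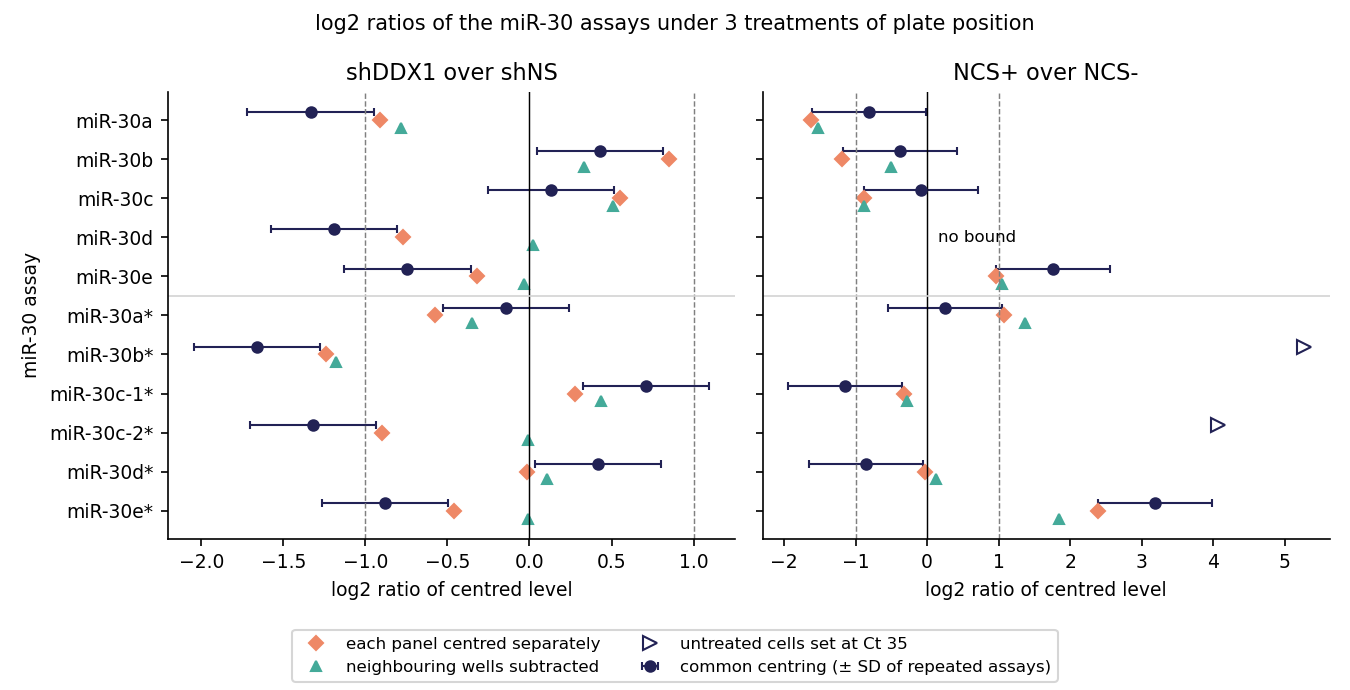
log2 ratio of each miR-30 assay in both comparisons, with the common centring (circles, bars of 1 technical SD), with panels centred separately (diamonds) and with neighbouring wells subtracted (triangles). In shDDX1 miR-30b* stays at -1.18 or lower in all 3, while miR-30d, miR-30e, miR-30c-2* and miR-30e* reach 0 once neighbours are subtracted. Open triangles show miR-30b* and miR-30c-2* with untreated cells set at Ct 35.

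With the common centring, the arms of each hairpin but miR-30e differed in log2 ratio by more than the SD of such a difference in shDDX1. For miR-30e the guide and passenger were at -0.74 and -0.88, a difference of 0.14. For miR-30b the guide exceeded the passenger by 2.09, with both arms on panel I, where the SD taken across panels was 0.54. That difference was 1.51 with neighbouring wells subtracted. miR-30c exceeded miR-30c-2* by 1.45, or by 0.52 after that subtraction. The guide was the lower arm in miR-30a, with a guide minus passenger difference of -1.19, and in miR-30d, with -1.61. These hairpins have their arms on different panels, and with panels centred separately the differences were -0.33 and -0.75. For miR-30d it was -0.083 with neighbours subtracted. miR-30c was at -0.58 relative to miR-30c-1*, or 0.28 with panels centred separately. Among the 6 hairpins, miR-30b was the one whose arms differed by more than the SD with neighbouring wells subtracted. Separate centring of panels could not change its difference, since both its arms are on panel I. The guide lies in outer and the passenger in middle columns, and the SD may not cover differences between columns.

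**Figure D3:**
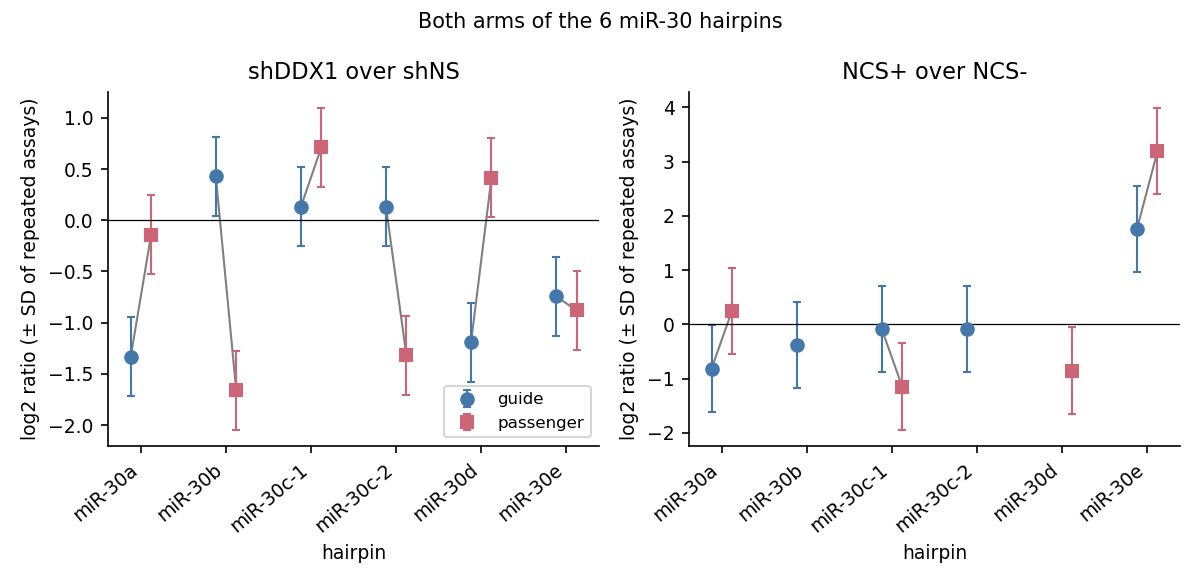
log2 ratio of the guide (circles) and passenger (squares) of each of the 6 hairpins, with bars of 1 technical SD and lines joining arms that were both quantified. miR-30c stands beside both of its hairpins. In shDDX1 the miR-30b arms are at 0.43 and -1.66, and the miR-30e arms at -0.74 and -0.88.

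Neighbouring hairpins did not share a ratio in general under the common centring. In the miR-30b and miR-30d cluster, the guides were at 0.43 and -1.19, and passengers miR-30b* and miR-30d* at -1.66 and 0.42. The lower arm was thus the passenger in miR-30b and the guide in miR-30d. With neighbouring wells subtracted, the guides differed by 0.31 and the arms of miR-30d by -0.083, both smaller than the SD of 0.54. The passengers then differed by -1.28. In NFYC, miR-30e was at -0.74 and miR-30e* at -0.88, but miR-30c-1* at 0.71. The gap between miR-30e* and miR-30c-1* was -1.59, or -0.73 with panels centred separately and -0.45 with neighbouring wells subtracted, the last under the SD of 0.54. On chromosome 6, miR-30a was at -1.33 and miR-30c-2* at -1.32. With neighbouring wells subtracted they were at -0.79 and -0.0082, and their difference of -0.78 was then larger than the SD. miR-30a* was at -0.14, though it comes from the same hairpin as miR-30a. With the common centring, passengers of one seed group differed from each other by more than the SD of 0.54. In the UUUCAGU group miR-30e* was at -0.88 and miR-30a* at -0.14, and in the UGGGAGA group miR-30c-2* was at -1.32 and miR-30c-1* at 0.71. The assays of each of these pairs sit on different panels. With panels centred separately the order of the first pair turned, with miR-30e* at -0.46 and miR-30a* at -0.58, within the SD of each other, while the second pair was at -0.90 and 0.28. With neighbouring wells subtracted the first pair was at -0.0087 and -0.35 and the second at -0.0082 and 0.44, both within the SD.

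The ratios of members moved with their place on the plates. On panel I, 5 members sit in columns 7 to 18, called the middle columns here. They were miR-30d, miR-30e, miR-30b*, miR-30c-2* and miR-30e*. Their ratios in shDDX1 had a median of -1.19 and 3 of 5 were lower. The other 180 quantified wells in those columns had a median of -0.79, and 40.6% of them were at least 2-fold lower. The members in outer columns of panel I were miR-30a, miR-30b and miR-30c, with a median of 0.13 against -0.23 for 178 other wells. miR-30a was the 1 of these 3 that was lower. The 3 members on panel II had a median of 0.42, and non-members there had medians of 0.51 in middle and 0.37 in outer columns. The part of plate position in the family's values was not tested.

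**Figure D4:**
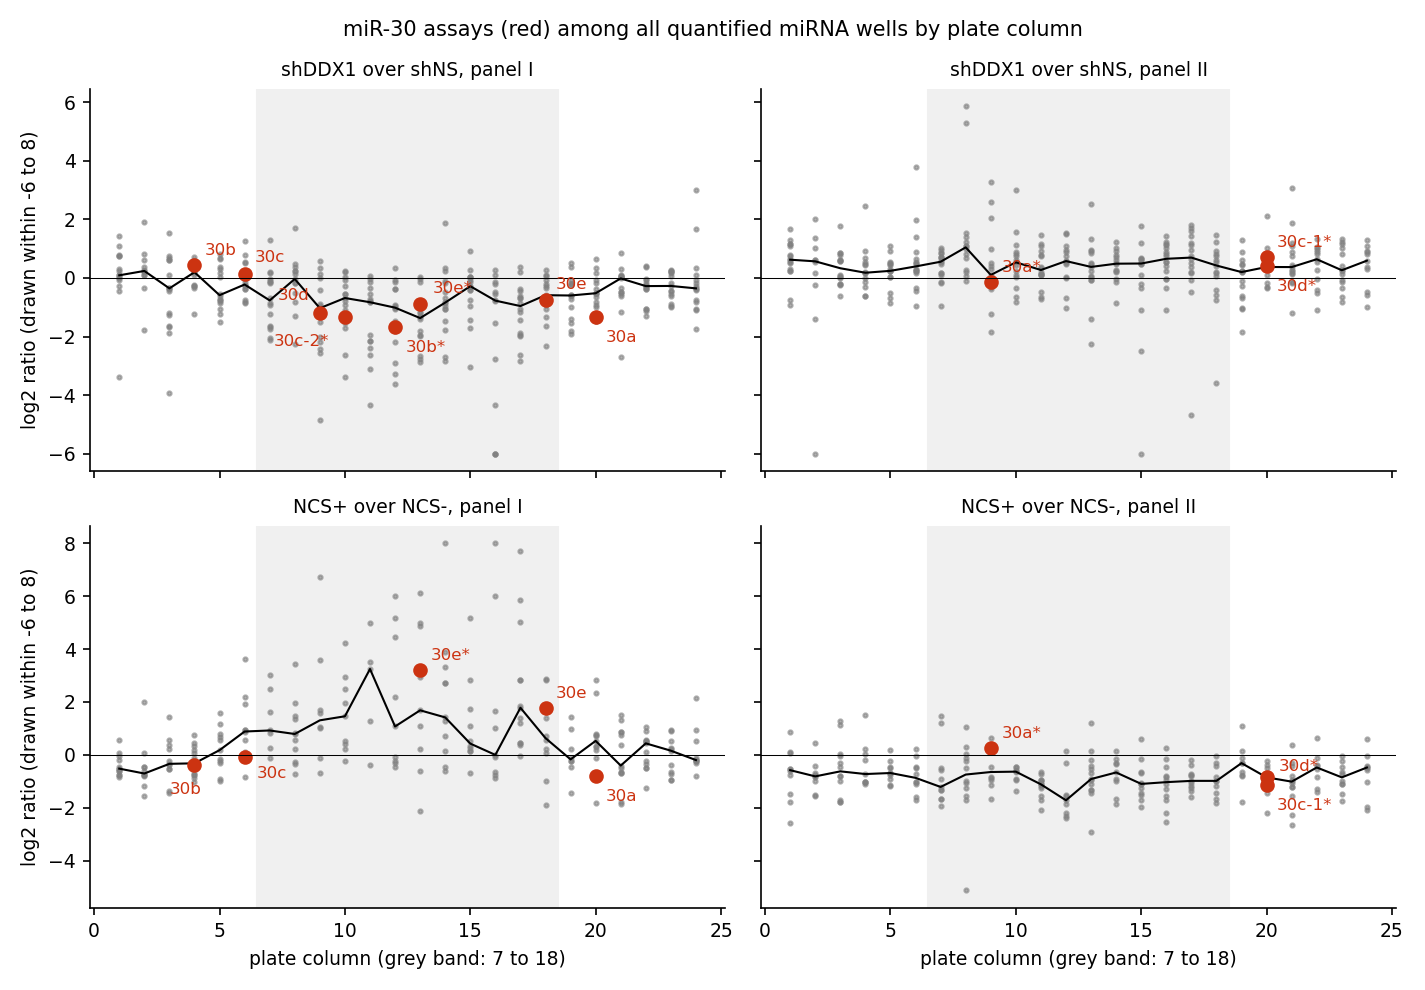
log2 ratio of every quantified miRNA well by plate column, for each comparison and panel, with non-members in grey, their median per column as a line and miR-30 assays in red. Values beyond -6 or 8 are drawn at those limits. On panel I miR-30a lies below the line in both comparisons, and miR-30e* lies above it after NCS.

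After NCS, miR-30e and miR-30e* were higher and miR-30c-1* was lower. Of 8 members quantified in both samples, 2 were at least 2-fold higher and 1 lower, against 16.9% higher and 22.3% lower of 498 assays. miR-30e and miR-30e* lie in middle columns of panel I, where 55.0% of 111 quantified non-members were higher. miR-30c-1* lies in outer columns of panel II, where 33.6% of 116 were lower, with a median of -0.72. The part of plate position in these calls was not tested. The median log2 ratio was -0.23, against -0.38 for all assays, but its sign depended on the scaling, with 0.55 against small RNAs and 0.50 without centring. With panels centred separately 2 were higher and 2 lower, against 13.7% and 20.5%. Another 3 members, miR-30d, miR-30b* and miR-30c-2*, had a Ct over 35 in untreated cells and are described separately. The 8 are thus not the whole family, and those left out are the members latest in untreated cells.

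miR-30e* went from Ct 30.6 to 26.7, 9.13-fold higher or 3.19, past 2-fold in 8 of 8 scalings. It was at 2.39 with panels centred separately, 5.23-fold higher, and at 1.84 with neighbouring wells subtracted. Its guide miR-30e went from Ct 29.4 to 26.9, 3.39-fold higher or 1.76. This was above 0 in 8 scalings and past 2-fold in 7, with 0.96 when panels were centred separately and 1.05 with neighbours subtracted. With the common centring, the arms of MIR30E had ratios of the same sign in both comparisons, below 0 in shDDX1 and above 0 after NCS. With neighbours subtracted, miR-30e and miR-30e* in shDDX1 were at -0.034 and -0.0087. Both wells lie in middle columns of panel I, where non-members had medians of -0.79 in shDDX1 and 1.11 after NCS. Guide minus passenger was -1.43 after NCS, where the SD of such a difference was 1.12.

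The guides in outer columns stayed close to 0 or below it. miR-30a read 32.3 and 32.4, at -0.82, below 0 in 8 scalings and past 2-fold in 2. It was 3.07-fold lower with panels centred separately. miR-30b read 24.3 and 23.9, at -0.38, and was above 0 in 3 of 8 scalings. With panels centred separately it was 2.28-fold lower, at -1.19. miR-30c read 23.4 and 22.7, at -0.085, and was above 0 in 4 of 8. The log2 ratio of miR-30e exceeded that of miR-30a by 2.58, although these guides differ by 1 base, and that of miR-30b by 2.15. Both gaps were larger than the SD of 1.12, which may not cover differences between plate columns. With neighbours subtracted the second was 1.56. The first could not move, since miR-30a and miR-30e had the same neighbour median of 0.71. Their wells, in columns 20 and 18, have overlapping neighbours, so the subtraction took out no difference between outer and middle columns. Non-members of panel I had medians of -0.15 in outer and 1.11 in middle columns. The part of plate position in this gap was not tested.

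Among passengers on panel II, miR-30c-1* read 30.6 and 31.0, 2.22-fold lower or -1.15, below 0 in 8 scalings and past 2-fold in 2. It was at -0.32 with panels centred separately. miR-30d* read 30.4 and 30.5, at -0.85, and was past 2-fold in 0 of 8 scalings. miR-30a* read 30.8 and 29.8, at 0.25, above 0 in 8 scalings and past 2-fold in 3. Its ratio was 1.08 with panels centred separately and 1.37 with neighbours subtracted, and its guide miR-30a was then at -1.62 and -1.52. The guide minus passenger difference of miR-30a was -1.07 with common centring and -2.70 with panels centred separately. In NFYC, miR-30e* exceeded miR-30c-1* by 4.34, or by 2.71 with panels centred separately.

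The members not under Ct 35 in untreated cells had the widest differences in raw Ct. miR-30b* went from Ct 37.5 to 29.0 and would be 38.6-fold higher after NCS with untreated cells set at Ct 35, or 22.1-fold with panels centred separately. On the log2 scale the first value is 5.27, against a median of 1.09 in its neighbouring wells. miR-30c-2* went from 39.3 to 30.2, which would be 16.7-fold with untreated cells at Ct 35, or 9.57-fold when each panel was centred on its own wells. The first of these is 4.06 on the log2 scale, against a median of 2.60 in its neighbouring wells. Neither assay has a firm lower bound, since the authors' deposited shifted Ct moved both untreated readings earlier by more cycles than the panel median. For miR-30d, 39.7 in untreated and 34.99 in NCS-treated cells, no bound is given since the NCS reading was itself at the limit. All 3 lie in middle columns of panel I, in wells N12, D10 and F9. In those columns 55.0% of 111 quantified non-members were at least 2-fold higher, with a median of 1.11. In outer columns it was 10.2% of 137, and the median was -0.15. In shNS the same wells read 26.1, 24.1 and 24.8. Whether signal was lost in untreated cells was not tested.

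The authors' deposited fold table gave other values for these 3 members. In the authors' deposited table miR-30d is 58.0-fold, miR-30b* 40.4-fold and miR-30c-2* 3.43-fold higher after NCS. The deposited Ct values differ by 4.74, 8.46 and 9.07 cycles, or 26.7-fold, 352.9-fold and 538.1-fold. The authors' deposited shifted Ct of miR-30c-2* in NCS- is its Ct shifted by -12.51 cycles, where miR-30b on the same panel was shifted by -3.44 and the panel median was -3.58. Which of these readings holds for miR-30c-2* cannot be settled from the tables. For the other 8 members the deposited log2 folds and the Ct differences were within 0.46. In the shDDX1 pair each of the 11 members was shifted equally in both samples, and for these members the authors' deposited folds equal the Ct differences, with 0.256 for miR-30b* and 0.321 for miR-30a.

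**Figure D5:**
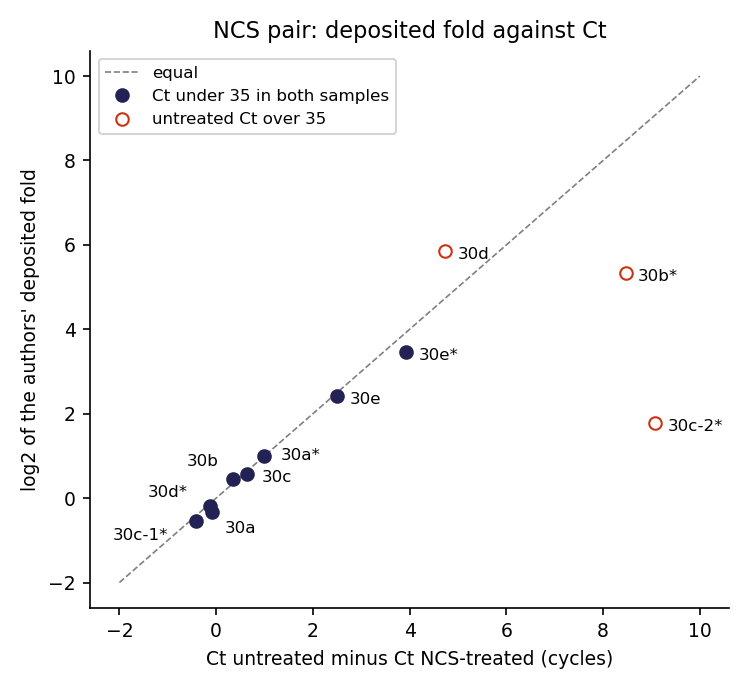
log2 of the authors' deposited fold after NCS against the difference in deposited Ct, 1 point per miR-30 assay, with a dashed line of equality. The 8 members under Ct 35 in both samples lie along the line. miR-30d lies above it, at a difference of 1.12, and miR-30b* and miR-30c-2* below it, at -3.13 and -7.29.

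Other families with several hairpins are given by counts and medians, and no difference from the miR-30 family was tested. Of all quantified assays, 17.3% were lower and 11% higher in shDDX1, and 22.3% were lower and 16.9% higher after NCS. Of 18 assays of let-7 and miR-98, which share a guide seed of their own and repress RAS genes among others, 4 were lower and 1 higher in shDDX1. Their median was 0.13, or 0.085 with panels centred separately, and their guide median of -0.68 was close to the -0.74 of the miR-30 guides. In the miR-29 family, known for repressing collagens, 0 of 7 assays were lower and 1 was higher, and the median was 0.40, or 0.060 with panels centred separately. After NCS, let-7 and miR-98 had 3 higher and 3 lower of 15 and a median of -0.33. The miR-29 family had 1 higher and 1 lower of 7 and a median of -0.091. Among 10 other miRNAs reported to repress RUNX2, 1 was lower and 0 higher in shDDX1, and 4 were higher and 0 lower after NCS, with medians of -0.46 and 0.83. These medians were -0.040 and 0.025 with panels centred separately, and after NCS 4 were then higher and 2 lower. Among 7 other miRNAs that restrain the epithelial-mesenchymal transition, 6 were lower in shDDX1, and 5 of 6 quantified were higher after NCS, with medians of -1.49 and 1.60. That list includes the miR-200 guides, which earlier results of these data had already shown, so it is not independent evidence. With panels centred separately 4 of the 7 were lower and 1 of the 6 higher. In shDDX1 the 6 epithelial markers, all in that list, read Ct 28.5 or later. The earliest water well of panel I, which holds them, read 27.3. What part of their signal is background was not tested.

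The 4 guides with Ct under 35 in all 4 samples had a mean profile, after removal of each assay's own mean level, of 0.098 in shNS, -0.28 in shDDX1, 0.033 in NCS- and 0.15 in NCS+. The guides moved in different directions, so this mean is nearly flat, and assays that moved little lie near it by construction. The assays nearest to it over the 4 samples were miR-194, miR-374a, miR-210, miR-330-3p and miR-889, at Euclidean distances of 0.154, 0.165, 0.169, 0.225 and 0.234. Of the guides, miR-30c lay at 0.509, miR-30b at 0.712, miR-30a at 1.11 and miR-30e at 1.19. The median distance of all other assays was 1.41. Each guide is part of the mean its distance is taken to, so these distances do not show that the guides are alike.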

How the data were processed

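Levels of miRNA were measured on an Exiqon 2-panel PCR plate set with SYBR Green after Trizol extraction, per the labels' protocols. No instrument or threshold is named in the sources used here. In the 3 tables deposited by the authors are Ct per well of 768, shifted Ct, and a linear fold (ratio) of each treated sample over its control. The Ct table was the starting point. Computation used Python 3.11.15, numpy 2.4.6 and pandas 2.3.3. Ratios were tested on simulated data that held no panel or column offsets, so this check does not cover such offsets. Assays on both panels were averaged. Counts cover miRNA assays only, without water, spike-in or small RNA wells or bracketed names. The neighbour correction subtracted the median log2 ratio of non-member miRNA wells within 2 rows and 2 columns. With 1 sample per group no test was run, and 1 value stands for each group. Named assays are every member matched by name and the 5 assays nearest in profile, with other lists given by counts and medians. Alternatives were the 8 scalings, the neighbour correction, Ct limits of 37, 32 or none, folds of 1.5 and 4, and guides alone. Plate columns alone and panel I alone were added after seeing the data. The members and lists were chosen with earlier results of these data known.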

Additional observations from a re-analysis of the deposited data

Results flagged for a closer look

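Water wells, which lie outside the main measurement, gave a signal. On panel I, which holds 8 of the 11 miR-30 assays, the earliest water well read Ct 27.8 in shNS and 27.3 in shDDX1. On panel II it read 26.6 in shNS and 26.5 in shDDX1. None of the 9 water wells gave a Ct in NCS- or NCS+. In shDDX1, miR-30a and miR-30b* read later than the panel I well and miR-30a* later than the panel II well. miR-30a* was later than the panel II well in shNS as well. The other panel II members read close to that well in shNS and shDDX1, miR-30d* at 26.5 and 26.3 and miR-30c-1* at 26.3 and 25.9. What part of these signals is background was not tested.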

How the results depend on the processing

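No paired analysis was possible because there is a single sample in each of the 4 groups, and no replicate could be left out. In shDDX1, where 4 members were lower, 1 was lower with panels centred separately, with plate calibrators, with neighbouring wells subtracted and in outer columns alone, 2 among guides alone and 0 at 4-fold. At 1.5-fold 1 member was higher. The median of -0.74 became -1.41 against small RNAs, -1.21 against reference miRNAs, -0.0082 with neighbouring wells subtracted and 0.42 in outer columns alone. After NCS, where 1 member was lower and 2 were higher, 0 were lower against small RNAs, against reference miRNAs, without centring, in the authors' deposited shifted Ct, at 4-fold, among guides, in middle columns and on panel I alone. There were 2 lower with panels centred separately and 3 at 1.5-fold. Higher members numbered 5 with no Ct limit, 1 at 4-fold, 1 among guides and 0 in outer columns. The median of -0.23 was 1.76 in middle columns alone, 0.55 against small RNAs, 0.10 against reference miRNAs, 0.50 without centring, 0.52 in the authors' deposited shifted Ct and 0.25 with no Ct limit. With neighbours subtracted miR-30d in shDDX1 was at 0.022, a change of sign. After NCS the difference between miR-30c and miR-30c-1*, 1.06, turned to -0.57 with panels centred separately and -0.60 with neighbours subtracted. The median ratio of all assays shifted against the common centring by -0.67, -0.46 and -0.30 in shDDX1, and by 0.79, 0.33 and 0.73 after NCS, with small RNAs, reference miRNAs and no centring. After NCS it also shifted by 0.19 with panels centred separately. Lower assays were 61.1% of all calls in shDDX1 and 56.9% after NCS, against 91.5% and 13.7% with small RNAs, 86.8% and 38.9% with reference miRNAs, and 80.7% and 16.8% without centring. The cause of these changes was not tested.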
